A study of Mus musculus with 8 samples.

Results

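The 10 genes described here form the core of the G1 switch of the cell cycle: the D cyclins Ccnd1, Ccnd2 and Ccnd3, their kinases Cdk4 and Cdk6, the CDK inhibitors Cdkn1b (p27) and Cdkn2c (p18), and the pocket proteins Rb1, Rbl1 (p107) and Rbl2 (p130). They were chosen by name as the members of this pathway, with earlier results of these data known, and are described whatever their values. The count table of 57180 genes held all 10. All 10 were among the 15660 genes that passed the filter on low counts. Expression was measured by RNA-seq in muscle stem cells (satellite cells) that were purified by FACS and used fresh. There were 4 libraries from control mice, labelled WT and numbered 2, 5, 7 and 8, and 4 from SC-RhoAfl/+ mice, numbered 5, 6, 7 and 8. The latter are called RhoA het in the sample titles and RhoA knockdown in the genotype label, and carry a floxed allele of Rhoa, the small GTPase that controls actin tension. Which Cre driver was used, whether the controls carried it, and the age and strain of the mice are not given in the sources used here. The study asked which genes differ when RhoA activity is reduced.

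In textbook terms, mitogens raise the D cyclins, which activate CDK4 and CDK6. These kinases phosphorylate the pocket proteins, which otherwise hold E2F factors silent and keep S-phase genes off. INK4 proteins such as p18 bind CDK4 and CDK6, and p27 binds cyclin-CDK complexes. In resting cells p130 is the pocket protein of the DREAM repressor complex. Most satellite cells of uninjured adult muscle are quiescent and enter G1 when activated, and p27 is known from studies of their quiescence.

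The libraries held 19138763 to 25606342 assigned fragments and 23762 to 24942 detected genes each. Rhoa had 383, 309, 273 and 334 CPM in controls 2, 5, 7 and 8, and 253, 271, 253 and 282 CPM in RhoA het 5, 6, 7 and 8, where CPM is the count scaled to the library size, corrected for library composition. The groups overlapped, control 7 lying below RhoA het 8. The log2 fold change of Rhoa (RhoA het minus control, as throughout) was -0.29 (SE 0.13), with an unadjusted p of 0.0495 and an adjusted p of 0.99983 by edgeR's quasi-likelihood test. Whether these reads fall in the floxed exons was not tested. Markers of muscle stem cells were present in every library, Pax7 among them. Control 2 and RhoA het 6 stood apart from the other 6 libraries: they held 14358 and 14659 fragments from Y-linked genes and 5 and 7 from Xist, against at most 2 and at least 3539 in the others. Each group has 1 such library. Libraries that share a number also deviated together from their group means, and what the number stands for is not given. In bulk samples such as these, fewer cells of a type and less RNA per cell cannot be told apart.

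Per unit of length, Ccnd1 was the most abundant of the 10 genes and Rbl1 the least. On the TPM scale, which also corrects for gene length, the mean levels over the 8 libraries were 135.5 for Ccnd1, 89.1 for Cdk4, 42.3 for Ccnd3, 23.3 for Cdkn1b, 19.3 for Cdkn2c, 17.6 for Ccnd2, 13.2 for Rbl2, 5.46 for Rb1, 4.65 for Cdk6 and 2.23 for Rbl1. Of the neighbours in this order, only Cdk4 and Ccnd3, and Rbl2 and Rb1, had ranges over the 8 libraries that did not overlap. Ccnd1 was above Cdk4 in 7 of 8 libraries. Cdkn2c was above Ccnd2 in 6, Ccnd2 above Rbl2 in 5, and Rb1 above Cdk6 in 5.

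**Figure D1:**
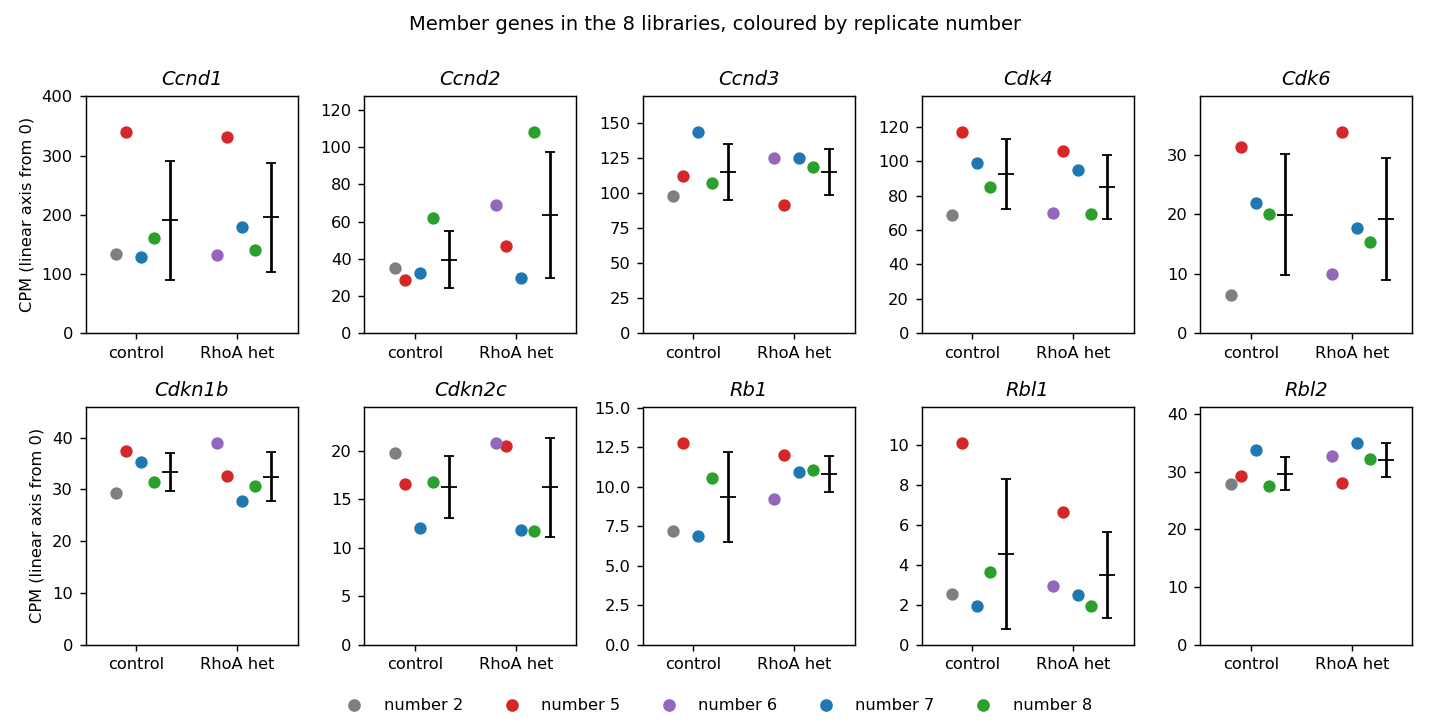
CPM of each of the 10 genes (vertical axes, linear from 0) in the control and RhoA het libraries, coloured by replicate number; black marks give the group mean and SD (n = 4). The 2 groups overlap for every gene, and the libraries numbered 5 (red) sit highest in both groups for Ccnd1, Cdk4, Cdk6, Rb1 and Rbl1.

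Among the D cyclins, Ccnd1 (chr7:144483668-144493662, minus strand, mm39) had 133, 340.02, 129 and 160.2 CPM in controls 2, 5, 7 and 8. In RhoA het 5, 6, 7 and 8 it had 330.5, 132, 179.8 and 141 CPM. The 2 libraries numbered 5 were the highest of each group, and the remaining 6 lay between 129 and 179.8 CPM. Its mean was 191 ± 100.5 CPM in controls and 196 ± 92.0 in RhoA het (SD, n = 4), which gives a log2 fold change of 0.04, with an SE of 0.38 and a 95% confidence interval from -0.81 to 0.89.

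Ccnd2 (chr6:127102125-127129156, minus strand) had the largest genotype difference of the 10 genes over all 8 libraries, and it did not pass the test. It had 34.8, 28.7, 32.2 and 62.1 CPM in the controls and 46.8, 68.9, 29.7 and 108 CPM in RhoA het, in the same order. Library 8 was the highest of each group, and RhoA het 7, at 29.7 CPM, was below all controls but number 5. The means were 39.4 ± 15.3 and 63.4 ± 33.9 CPM, and the log2 fold change was 0.69 (SE 0.38, interval from -0.18 to 1.55, unadjusted p = 0.107 and adjusted p = 0.99983 by edgeR). With the replicate number as a block, in the 6 libraries numbered 5, 7 and 8, it was 0.45 (SE 0.17, interval from 0.07 to 0.82), with an unadjusted p of 0.0238 and an adjusted p of 0.835 in edgeR. RhoA het was higher than control within numbers 5 and 8 and lower within number 7. Over the 8 libraries less 1, the fold change was 0.30 on the log2 scale without RhoA het 8 and 0.99 without control 8. Without RhoA het 5 it was 0.80, and Rbl1 then had the larger difference, at -0.90.

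Ccnd3 (chr17:47815976-47910616, plus strand) was the steadiest of the D cyclins. It had 97.9, 112, 144 and 107 CPM in the controls and 91.3, 125, 125 and 118 CPM in RhoA het. The libraries of both groups lay in one range, and the log2 fold change was -0.0017 (SE 0.16, interval from -0.35 to 0.35).

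Ccnd1 made up most of the D cyclin RNA in every library. By TPM its share of the 3 transcripts was 65.6%, 82.0%, 58.2% and 64.4% in controls 2, 5, 7 and 8 and 82.0%, 56.5%, 68.7% and 54.5% in RhoA het 5, 6, 7 and 8. Ccnd2 took from 3.47% (control 5) to 20.9% (RhoA het 8) and Ccnd3 from 12.2% (RhoA het 5) to 34.6% (control 7). The 3 together came to 111 TPM in the lowest library and 315 TPM in the highest.

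**Figure D2:**
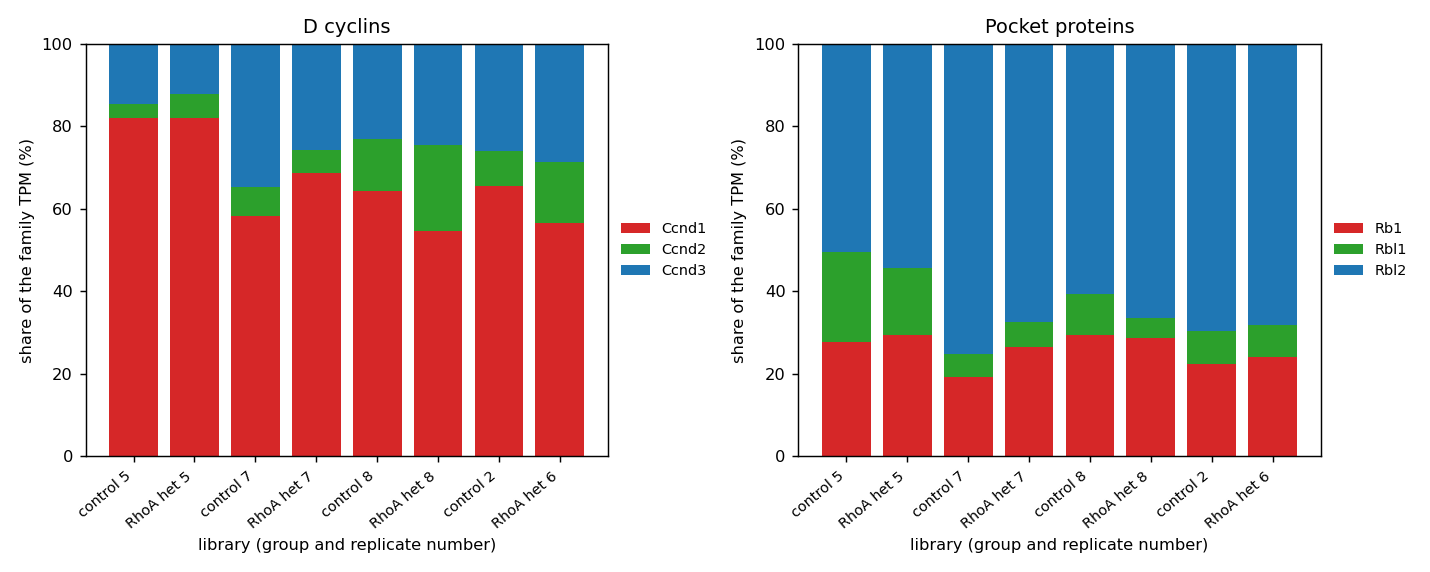
Share of the summed TPM of each family (percent, vertical axis) taken by each D cyclin (left) and each pocket protein (right) in the 8 libraries, ordered by replicate number. Ccnd1 takes 54.5% to 82.0% of the D cyclin sum, and Rbl1 takes its largest shares in the 2 libraries numbered 5.

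Of the kinases, Cdk4 (chr10:126899403-126903789, plus strand) had 68.9, 117, 99.1 and 85.2 CPM in the controls and 106, 69.6, 94.6 and 69.1 CPM in RhoA het. Library 5 was again the highest of each group, and the log2 fold change was -0.12 (SE 0.20, interval from -0.57 to 0.32). Cdk6 (chr5:3391485-3581008, plus strand) had 6.50, 31.3, 21.8 and 20.1 CPM in the controls and 33.8, 9.94, 17.6 and 15.3 CPM in RhoA het. Library 5 was highest in both groups, and control 2 and RhoA het 6, the pair with Y-linked reads, were the lowest. Its log2 fold change was -0.06 (SE 0.47, interval from -1.11 to 1.00). By TPM Cdk4 was 93.1% to 97.9% of the 2 kinases together.

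RefSeq promoter windows (build GRCm38.p6, 250 bases before to 50 after the start) were matched for 7 of the 10 genes, with no entry for Ccnd1, Ccnd2 or Rb1. The E-box CACGTG, the site that MYC family factors bind, was searched on both strands. It was found in 2349 of 32851 windows of 300 bases (7.15%). Among the matched genes it was found 4 times for Cdk4 and once each for Cdk6 and Cdkn2c. The 250 upstream bases of Cdk4 (chr10:127063285-127063534, plus strand) are shown because they hold all 4 of its matches, which stand in capitals:
Cdk4: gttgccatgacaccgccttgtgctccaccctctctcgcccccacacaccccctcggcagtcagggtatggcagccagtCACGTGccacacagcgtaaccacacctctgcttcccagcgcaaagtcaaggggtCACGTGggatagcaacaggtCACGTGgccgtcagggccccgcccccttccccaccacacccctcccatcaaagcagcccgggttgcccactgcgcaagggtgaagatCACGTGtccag
A match is a description of these letters and was not tied to binding.

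For both inhibitors the group means lay within 1 SD of each other. Cdkn1b (chr6:134897364-134902476, plus strand) had 29.3, 37.4, 35.2 and 31.4 CPM in the controls and 32.5, 39.0, 27.7 and 30.6 CPM in RhoA het. The highest library was only 1.41 times the lowest, and the log2 fold change was -0.04 (SE 0.14, interval from -0.36 to 0.28). Cdkn2c (chr4:109518073-109524386, minus strand) had 19.8, 16.6, 12.0 and 16.8 CPM in the controls and 20.5, 20.8, 11.9 and 11.8 CPM in RhoA het. Library 7 was the lowest control, RhoA het 7 and 8 were level with it, and the log2 fold change was -0.0024 (SE 0.25, interval from -0.55 to 0.55). By TPM Cdkn1b was 46.7% to 63.4% of the sum of these 2 inhibitors. A further inhibitor, Cdkn1a (p21), was far more abundant than either at 843 to 1453 TPM, and is named here after its values were seen. Its log2 fold change was 0.17 (edgeR adjusted p = 0.99983).

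Of the pocket proteins, Rbl2 was the steadiest and Rbl1 the most variable. Rbl2 (chr8:91796685-91850472, plus strand) had 27.9, 29.3, 33.7 and 27.4 CPM in the controls and 28.0, 32.8, 34.96 and 32.3 CPM in RhoA het. The highest value was 1.27 times the lowest, and the log2 fold change was 0.11 (SE 0.12, interval from -0.17 to 0.39). Rb1 (chr14:73421113-73563262, minus strand) had 7.18, 12.8, 6.86 and 10.6 CPM in the controls and 12.0, 9.22, 10.9 and 11.1 CPM in RhoA het. The RhoA het libraries lay inside the range of the controls, and the log2 fold change was 0.21 (SE 0.23, interval from -0.30 to 0.72). Rbl1 (chr2:156987813-157046454, minus strand) had 2.54, 10.1, 1.95 and 3.62 CPM in the controls and 6.62, 2.95, 2.47 and 1.90 CPM in RhoA het. Library 5 was the highest of each group by far, and the log2 fold change was -0.38 (SE 0.57, interval from -1.66 to 0.89). Rbl1 rested on 37 to 217 fragments per library, the fewest of the 10 genes. By TPM, Rbl2 took 50.5% to 75.3% of the pocket protein sum. Rbl1 took 21.9% and 16.2% in control 5 and RhoA het 5, and its lowest share in any library was 4.94%.

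The Rbl1 promoter is shown because it was the one with an E2F motif. Such a motif, the site to which the pocket proteins are drawn through E2F factors, was searched as TTTGGCGC, TTTCGCGC, TTTGCCGC or TTTCCCGC on both strands. It was found in 744 of the 32851 windows (2.26%). Among the matched genes only Rbl1 held one, 18 bases before the start, in capitals in its 250 upstream bases (chr2:157204535-157204784, minus strand):
Rbl1: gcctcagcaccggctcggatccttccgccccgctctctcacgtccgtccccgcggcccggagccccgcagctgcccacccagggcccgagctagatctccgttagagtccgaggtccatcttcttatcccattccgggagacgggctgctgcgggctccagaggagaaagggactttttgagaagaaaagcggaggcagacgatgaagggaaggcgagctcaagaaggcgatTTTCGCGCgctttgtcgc
The CArG box of serum response factor, which acts downstream of RhoA and actin, was in 1.63% of windows and in none of the members' windows. That says only that these letters are not in this window.

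Counting used no strand, so reads from exons that overlap on opposite strands cannot be told apart. Cdk4 shares exons with Tspan31, which was counted at up to 3193 fragments, Ccnd3 with Bysl (up to 1428), Rbl2 with Aktip and Gm45464 (up to 1212) and Rb1 with Rcbtb2 and Lpar6 (up to 544). The values of these 4 genes are uncertain by an amount that was not tested. Ccnd1 shares exons with LTO1, counted at no more than 249 fragments, while Cdkn1b and Rbl1 share none.

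In none of the members was a difference between RhoA het and control detected. In this design no member passed an adjusted p of 0.05 in edgeR, and neither did any other gene (0% of the 15660 genes tested). At an unadjusted p under 0.05 there were 0 members, against 2.38% of all genes (372, of which 263 were higher in RhoA het). In no member were the 2 groups free of overlap, which held for 1.81% of all genes. DESeq2 also called 0 genes. In 4 members the log2 fold change was above 0 and in 6 below, and the median absolute log2 fold change was 0.08, beside 0.14 over all genes. With the number as a block, 2 genes passed (0.0127% of 15714), no member among them. Ccnd2 was the 1 member with an unadjusted p under 0.05 in that fit, against 5.26% of all genes. The intervals were narrow enough to leave out a change of 1 log2 unit for Ccnd1, Ccnd3, Cdk4, Cdkn1b, Cdkn2c, Rb1 and Rbl2, and were wider for Ccnd2, Cdk6 and Rbl1. The log2 fold change of Ccnd1 was 0.47 without control 5 and -0.34 without RhoA het 5, and it also turned below 0 without control 2, 7 or 8 (-0.10, -0.11 and -0.04).

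**Figure D3:**
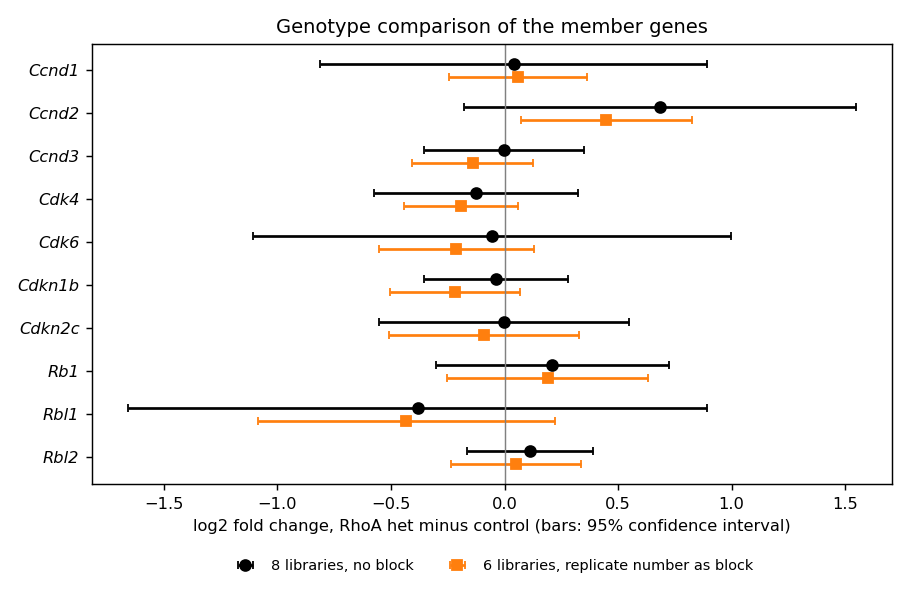
Log2 fold change (RhoA het minus control, horizontal axis) of each gene with its 95% confidence interval, from all 8 libraries (black) and from the 6 libraries numbered 5, 7 and 8 with the number as a block (orange). Every black interval spans 0, and among the orange ones only that of Ccnd2 (0.07 to 0.82) does not.

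Several members differed among replicate numbers. This second comparison was made because earlier results of these data had shown cell cycle genes moving with the number, so it is no independent evidence of that. It tests whether a gene differs among numbers 5, 7 and 8 with the genotype as a term, each number having 1 control and 1 RhoA het library. Of the 10 members 4 passed an adjusted p of 0.05 in edgeR, against 11.3% of the 15714 genes tested. Ccnd1, Cdk6 and Rbl1 passed with number 5 highest, the direction of 4.22% of all genes. None passed with number 5 lowest, the direction of 4.77%. The median range between the highest and lowest number was 0.59 log2 units over the members and 0.46 over all genes.

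By role, Ccnd1 was 1.15 log2 units higher in number 5 than in number 8 and 1.13 higher than in number 7 (edgeR adjusted p = 0.00119). Cdk6 was 0.89 higher in number 5 than in number 8 (adjusted p = 0.0167). Rbl1, itself a target of E2F, was 1.88 higher in number 5 than in number 7 (adjusted p = 0.00769). Ccnd2 had another order: it was 1.39 log2 units higher in number 8 than in number 7 (adjusted p = 0.00203). The other 6 members did not pass in this fit. Cdk4 had a range of 0.54 with number 5 highest (adjusted p = 0.0684), Cdkn2c 0.64 (0.198), Rb1 0.51 (0.387) and Ccnd3 0.40 with number 7 highest (0.211). The 2 smallest ranges were those of Rbl2 at 0.26 (0.504) and Cdkn1b at 0.17 (0.713).

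Only Ccnd2 passed this test in every set of libraries tried. Without control 5 it was the 1 member to pass, the adjusted p in edgeR being 0.0714 for Ccnd1, 0.0578 for Cdk6 and 0.203 for Rbl1, and 621 genes passed in place of 1778. Without RhoA het 5, Ccnd1 and Ccnd2 passed, Cdk6 was at 0.277 and Rbl1 at 0.117, and 577 genes passed. Cdkn2c passed without control 8 (0.0450).

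**Figure D4:**
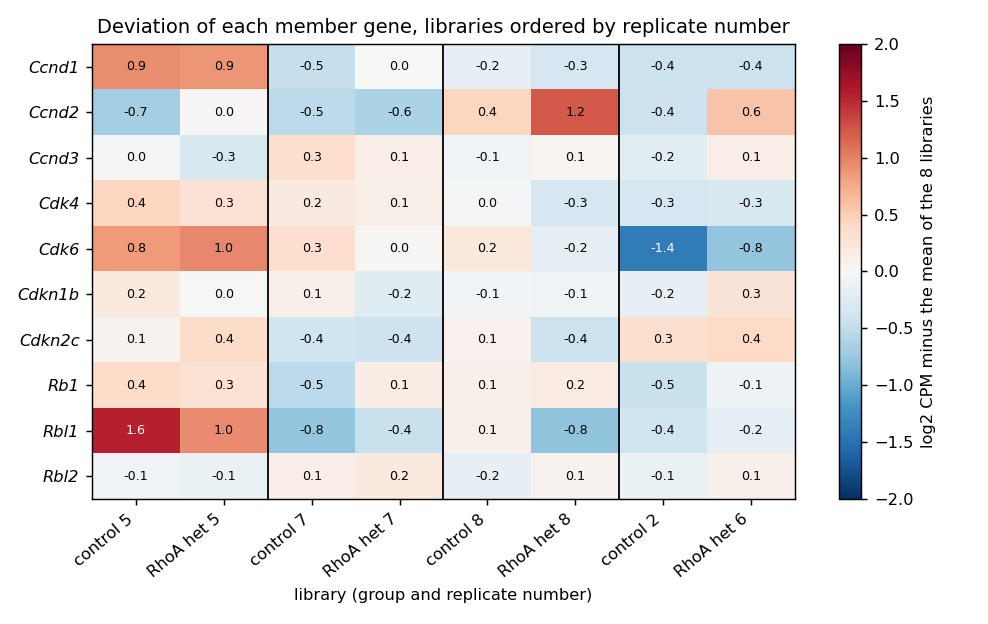
Colour gives the log2 CPM of each gene (rows) minus its mean over the 8 libraries; libraries (columns) are ordered by replicate number, and vertical lines separate the numbers. Ccnd1, Cdk6 and Rbl1 are above their mean in both libraries numbered 5, and Ccnd2 in both numbered 8.

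Markers of muscle stem cells, of other cells and of differentiation also differed with the number. Of the 9 stem cell markers 5 passed: Itga7 with number 5 highest, Myf5, Calcr and Chodl with number 7 highest and Cd34 with number 8 highest. The sum of all 9 was 7710 to 8850.25 CPM in number 5 and 8750 to 15389 CPM elsewhere. Sdc4 and Vcam1 made up most of that sum, and neither passed (edgeR adjusted p = 0.188 and 0.223). The mean log2 CPM of the 9 was 8.41 in control 5 and 8.11 in RhoA het 5, inside the 8.07 to 8.60 of the other libraries. All 4 erythroid genes tested passed with number 7 highest, but of that pair only control 7 was high. Its erythroid list summed to 143 CPM, while that of RhoA het 7 came to 6.19. The latter lay below both libraries numbered 8 (22.3 for the control and 25.4 for RhoA het). The largest erythroid sum, 319 CPM, was that of RhoA het 6, a library outside this test. Of the committed myogenic genes, 2 of 3 tested passed with number 5 highest. Myog, the myogenin gene of differentiating myoblasts, had 51.7 and 40.2 CPM in control 5 and RhoA het 5 and 3.06 to 9.75 CPM elsewhere. Mymk, needed for myoblast fusion, had 6.55 and 5.12 CPM there and 0.112 to 1.64 elsewhere. The whole committed list, which Myod1 dominates, summed to 973 to 1615 CPM in number 5 and to 1019 to 2103 elsewhere, and Mymx was at 0 in 4 libraries, none of them numbered 5. Of the myofibre genes, 9 of 13 tested passed with number 5 highest, with summed levels of 303 to 626 CPM in number 5 and 120 to 585 elsewhere, and Tnnc2 was at 0 in RhoA het 8. Of 10 fibro-adipogenic genes, Col1a1 and Col3a1 passed with number 5 highest and 5 others, Pdgfra among them, with number 8 highest. The sum of the 10 was 9149 to 10879 CPM in number 5 and 2493 to 5236 elsewhere. Col1a1 and Col3a1 made up most of it in number 5, at 3150 and 6818 CPM in control 5 and 2802 and 5158 CPM in RhoA het 5. The mean log2 CPM of the 10 was 6.19 in control 5 and 6.17 in RhoA het 5, inside the 5.62 to 7.06 of the other libraries. Pdgfra, which defines these cells, was at 2.55 and 5.54 CPM in number 5. The part of these cells and markers in the values of Ccnd1, Cdk6 and Rbl1 was not tested.

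Beside Ccnd2, markers of vessel-wall and glial cells were highest in number 8. Of 6 mural genes, 4 passed with number 8 highest (Pdgfrb, Cspg4, Acta2 and Myh11), and 4 of 5 Schwann genes did. The mural sum was 1138 and 2280 CPM in control 8 and RhoA het 8 and 619 to 1475 CPM elsewhere. The Schwann sum was 404 and 473 CPM in number 8 and 207 to 365 elsewhere. Myh11, the smooth muscle myosin, had 31.1, 18.2, 42.0 and 124 CPM in controls 2, 5, 7 and 8 and 21.7, 124, 20.4 and 306 CPM in RhoA het 5, 6, 7 and 8. RhoA het 8, RhoA het 6 and control 8, the 3 libraries with the most Ccnd2, also had the most Myh11 and Pdgfrb. The other mural genes did not share these 3 libraries at the top: control 5 was among the 3 highest for Acta2 (621 CPM), RhoA het 5 for Cspg4 (24.6 CPM), control 7 for Rgs5 (486 CPM) and control 2 for Kcnj8 (27.9 CPM). Myh11 is shown in the plot beside the D cyclins and was chosen after its values were seen. Lyz2, 1 of 3 immune genes tested, also passed with number 8 highest. Of 10 endothelial genes, Cdh5 and Esam passed with number 8 highest (edgeR adjusted p = 0.00529 and 0.0258) and Tek with number 7 highest (0.0495). The endothelial genes summed to 692 CPM in RhoA het 6 and to 74.3 to 170 CPM in the other libraries. None of the mural, Schwann, endothelial or fibro-adipogenic genes was at 0 in any library, and their part in the value of Ccnd2 was not tested.

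**Figure D5:**
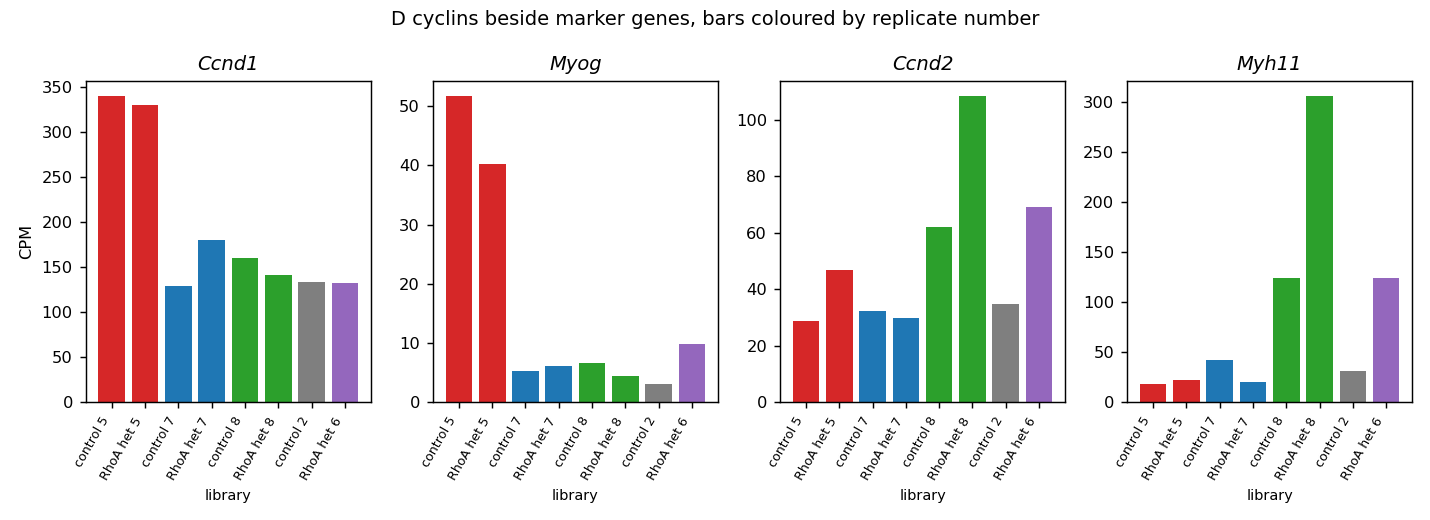
CPM (vertical axes, linear from 0) of Ccnd1 beside Myog and of Ccnd2 beside Myh11 in the 8 libraries, with bars coloured by replicate number. Ccnd1 and Myog are highest in the 2 libraries numbered 5, and Ccnd2 and Myh11 are highest in RhoA het 8, RhoA het 6 and control 8, which does not hold for the mural genes Acta2, Cspg4, Rgs5 and Kcnj8.

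Most of the listed genes downstream of the pocket proteins were highest in number 5. Of 17 E2F-regulated genes of S phase and mitosis, 11 passed in edgeR's test among numbers, all 11 with number 5 highest. That was the direction of 4.22% of all genes. Pcna and Mcm4 were highest in number 7 and Cdt1 in number 8, without passing (edgeR adjusted p = 0.401, 0.523 and 0.230). The median range of the 17 was 1.22 log2 units, and the listed Mcm genes had ranges from 0.32 (Mcm4) to 2.30 (Mcm2). The summed level of the 17 was 646 and 528 CPM in control 5 and RhoA het 5 and 277 to 363 CPM in the other 6 libraries. Mki67, the proliferation marker Ki-67, had 57.6 and 37.6 CPM in control 5 and RhoA het 5 and 0.370 to 3.80 CPM elsewhere (range 5.08, adjusted p = 2.90e-05). Number 5 was also highest for Top2a, the topoisomerase of dividing cells (range 4.29), for the mitotic kinase Cdk1 (3.74) and for Rrm2, a subunit of the reductase that makes deoxynucleotides (2.09). None of the 17 passed between genotypes, with a median log2 fold change of -0.13 and 5 of them above 0.

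Among 13 other G1 and S-phase entry genes, 4 passed among numbers, all with number 5 highest. Ccna2, the cyclin of S phase and G2, had 22.8 and 12.2 CPM in control 5 and RhoA het 5 and 0.317 to 2.42 CPM elsewhere (adjusted p = 2.90e-05). The inhibitor Cdkn1c (p57) had a range of 1.64 (0.00212), the cyclin E gene Ccne1 1.26 (0.0120) and its kinase Cdk2 0.78 (0.00903). Of 10 E2F and DP genes, 5 passed, 4 of them with number 5 highest. E2f2, an activator, had 27.5 and 21.6 CPM in control 5 and RhoA het 5 and 5.54 to 14.3 CPM elsewhere (0.00143). E2f3 (0.0387) and the repressor E2f8 (0.00442) were also highest in number 5, and the partner Tfdp2 in number 7 (0.0489). No gene passed between genotypes in either list, with medians of -0.05 and 0.08 log2 units.

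Of 9 ubiquitin ligase genes, 2 passed, both with number 5 highest: Skp2, the F-box protein that marks p27 for destruction, with a range of 1.81 (edgeR adjusted p = 0.00669), and its cofactor Cks1b, with 0.81 (0.0429). None of the 4 tested MuvB genes passed. Lin52 had a range of 0.73 (0.0771) and Rbbp4 of 0.28 (0.390), and Lin54 was not analysed here. Of 9 mitogen and quiescence regulators, 5 passed, 2 with number 5 highest (Mycn at 0.96 and Foxo4 at 1.04 log2 units) and 2 with it lowest, the immediate-early gene Fos among them (0.90, adjusted p = 0.0158). Spry1, an inhibitor of growth factor signalling, was highest in number 7 (1.08, 0.0112). None of these 3 lists held a gene that passed between genotypes.

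The genes whose log2 CPM ran most like each member over the 8 libraries are given as a description, from 7898 genes searched. All 8 points share their libraries and numbers. For Ccnd1 they were Mlf2 (Pearson r = 0.990) and Dtl (0.989). For Ccnd2 they were Sparcl1 (0.954) and Pcp4l1 (0.947), and for Ccnd3 Ezh1 (0.968) and Cd2bp2 (0.954). Cdk4 ran with Mrln (0.973) and Sccpdh (0.972), and Cdk6 with Ckap5 (0.978) and Thy1 (0.9747). Cdkn1b ran with Ckm (0.950) and Selenop (0.948), and Cdkn2c with Clic1 (0.911) and Socs1 (0.907). Rb1 ran with Swt1 (0.983) and Apbb2 (0.977), Rbl1 with Cul7 (0.991) and Sh3glb1 (0.987), and Rbl2 with Abhd10 (0.964) and Cherp (0.960).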

How the data were processed

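RNA from 8 muscle stem cell libraries was prepared with a low-input template-switching kit, per the labels' protocols. The authors deposited a table of fragment counts per gene, made from STAR alignments with featureCounts 1.6.4, GENCODE mouse release 34 and no strand option, per the file headers, on mm39. The header names 10 alignment files, and the 8 labelled libraries were analysed here. The submitters' processing notes also list FastQC, cutadapt and DESeq2. The authors also deposited TPM per gene, used for levels between genes and shares.

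Counts were tested with edgeR 4.0.16 (R 4.3.3): TMM factors, filterByExpr, the quasi-likelihood F test and Benjamini-Hochberg adjustment over all genes tested, at 0.05. One fit compared the genotypes in 8 libraries with no covariate; another tested numbers 5, 7 and 8 with genotype as a term. CPM uses TMM library sizes, and log2 CPM a prior count of 2. Names matched 51884 of 57180 genes. The script was tested on simulated data. Alternatives used DESeq2 1.42.0 and limma 3.58.1, other filters and factors, and each library left out. Nothing says that libraries of a group came from separate mice, so p-values measure the spread between libraries.

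Deviations from group means of libraries sharing a number correlated at 0.544, 0.2315 and 0.488 for numbers 5, 7 and 8, so the numbers were taken as pairing the libraries; the pairing comes from the data, not from a label. The members and lists were chosen with earlier results of these data known. The rule names all 10 members, Rhoa, up to 4 passing genes per pathway list by p (or the smallest p in each test), and 2 genes of mean CPM of at least 10 most like each member. Cdkn1a and the cell type markers named lie outside this rule and were picked after their values were seen.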

Additional observations from a re-analysis of the deposited data

How the results depend on the processing

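Of 180 recomputed genotype fold changes, 154 kept their direction and side of the threshold and 26 changed sign; none passed in any setting. With the replicate block (number 5, 7 or 8 as a term), 2 genes passed between genotypes in place of 0, and the block changed no other call. In limma on log2(TPM + 1) and log2(TPM + 0.1), the log2 fold change turned to 0.081 and 0.084 for Ccnd3, 0.032 and 0.080 for Cdk6, 0.037 and 0.039 for Cdkn1b and 0.045 and 0.046 for Cdkn2c. With both libraries numbered 5 left out, a choice made after seeing the data, it was 0.065 for Ccnd3 and 0.0047 for Cdkn1b. Leaving out each library in turn gave -0.34 to 0.47 for Ccnd1, -0.076 to 0.12 for Ccnd3, -0.48 to 0.24 for Cdk6, -0.14 to 0.025 for Cdkn1b, -0.15 to 0.12 for Cdkn2c and -0.90 to 0.36 for Rbl1; the cause was not tested. Among numbers, 2992 genes passed in place of 1778 with no filter on low counts, and 577 to 2295 genes and 1 to 5 members with a library left out. Cdk4 passed with no filter (adjusted p = 0.0272) and in DESeq2's likelihood-ratio test (0.0468). With 4 libraries per group, the width of the intervals is the limit on the genotype fold changes.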
